A study of Mus musculus with 6 samples.

Results

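The replication-dependent histone genes of mouse encode the linker histone H1 and the core histones H2A, H2B, H3 and H4. They were taken as the protein-coding rows whose symbol begins with Hist1, Hist2, Hist3 or Hist4 and whose value was above 0 in at least 1 of 6 RNA sequencing libraries. That gave 66 of the 47606 genes in the tables, or 66 of 26126 genes above 0 in at least 1 library. A further 2 rows with such a symbol, Hist1h2ba and Hist1h4m, were listed at 0 in all 6 libraries. By class the members were 6 H1, 19 H2a, 17 H2b, 12 H3 and 12 H4 genes. These genes are transcribed mainly while DNA is copied, and their proteins package the new DNA: the core histones form the nucleosome, and H1 binds the linker DNA where it enters and leaves. Most of their mRNAs are not polyadenylated but end a few bases after a conserved stem-loop, which is bound by the protein Slbp, and read-through to a downstream poly(A) site gives a longer, polyadenylated form of some of them. The genes have no introns as a rule, and copies within a class are close to identical in their coding part.

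The cells were 32D, a mouse myeloid line grown in medium with interleukin 3 at 1 ng/mL. All 6 libraries came from cells with dCas9-KRAB, a cutting-deficient Cas9 joined to a repressor domain, transduced with lentivirus and selected in puromycin for a week. The lentivirus was EV, the control, sg2 or sg5, the names that the labels give to guide RNAs, with 2 libraries each. The series title concerns a CEBPE enhancer (CEBPE acts in granulocyte development), and the design text sets EV against sg2 and sg5. The library titled sg5 replicate 2 is labelled sg2 in its source name and its genotype. It is counted as sg5 by its title, and results that rest on it are given also with it as sg2 or left out. Nothing in the labels says that replicates came from separate cultures or transductions, so the p-values reflect no more than how far these libraries differ. In such bulk samples, fewer cells of a type (such as cells in S phase) and less RNA per cell cannot be told apart.

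Values are FPKM, in which fragment numbers are divided by transcript length and by depth. The implied depth was between 31800000 and 45600000 fragments per library, and between 21239 and 21867 genes were above 0. Cebpe was at 42.0 and 100.4 FPKM in the EV libraries and between 14.4 and 22.7 FPKM in the 4 guide libraries. The 9 myeloid progenitor markers examined summed to between 641 and 973 FPKM. Prtn3, Spi1, Ptprc, Csf2rb and Ctsg lay between 30.5 and 372 FPKM, Elane (1.40 to 2.495 FPKM) and Cd34 (0.19 to 0.33 FPKM) were low, and Kit was listed at 0. Mpo was at 150.5, 41.5 and 123 FPKM in replicate 1 of EV, sg2 and sg5 and at 13.01, 12.3 and 14.8 FPKM in replicate 2. Neutrophil granule markers summed to 256 and 476 FPKM in EV and to between 4.42 and 35.1 FPKM in the guide libraries. Of other cell types, 2 T cell and 2 epithelial markers summed to at most 0.42 FPKM, with Cd3e and Epcam listed at 0, 2 B cell markers to between 1.19 and 2.03 FPKM and 2 fibroblast markers to between 0.13 and 2.07 FPKM. The 3 erythroid markers, of which Hbb-bt was listed at 0, summed to 2.36, 5.20 and 3.52 FPKM in replicate 1 of EV, sg2 and sg5 and to 11.51, 18.7 and 5.28 FPKM in replicate 2. The part of these cell types in the histone values was not tested. RNAs shorter than 200 nt held a larger share of all FPKM in the replicate 2 libraries (15.4% to 21.5%) than in the replicate 1 libraries (6.77% to 9.67%).

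The 3′ ends of the members show the feature that sets these mRNAs apart. A stem-loop core, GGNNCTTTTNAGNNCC on the sense strand after the stop codon, was found in the GENCODE M21 transcript models of 41 of 63 members with a coding model (65.1%), against 61 of 21901 protein-coding genes (0.279%). A poly(A) signal (AATAAA or ATTAAA) in the last 40 nt was found in 25.4% of members and 76.0% of protein-coding genes. These shares are not alike in measure. Among all genes any coding transcript could hold the signal, while each member was read from 1 transcript, with a stem-loop where possible. Members modelled by their coding part only have no sequence after the stop codon to search. The cores differ by class: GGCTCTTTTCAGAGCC stood in 24 members, none of them an H4 gene, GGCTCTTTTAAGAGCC in 6, and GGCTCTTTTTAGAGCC in 1. The H4 genes carried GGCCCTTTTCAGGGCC (6 members), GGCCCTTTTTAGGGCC (2 members) or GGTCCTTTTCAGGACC (2 members). The sequences below are the stem-loops of members described in the results, in GRCm38, 5′ to 3′ on the gene's strand, with the core in capitals. They are shown because they let a reader see what the H1, H2a, H3 and H4 mRNAs share and where the H4 stem differs.
Hist1h1c, chr13:23739507-23739532, plus strand: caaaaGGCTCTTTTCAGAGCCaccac
Hist1h1d, chr13:23555782-23555807, plus strand: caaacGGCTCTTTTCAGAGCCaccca
Hist1h1e, chr13:23621777-23621802, minus strand: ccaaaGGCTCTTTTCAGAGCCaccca
Hist3h2a, chr11:58955167-58955192, plus strand: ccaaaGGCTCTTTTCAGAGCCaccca
Hist1h3c, chr13:23745042-23745067, minus strand: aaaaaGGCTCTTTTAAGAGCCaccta
Hist1h4i, chr13:22040961-22040986, minus strand: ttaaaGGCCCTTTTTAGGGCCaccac
Hist1h4n, chr13:21831793-21831818, minus strand: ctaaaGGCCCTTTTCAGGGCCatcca
The models differ in how far they run past this element. That of Hist1h1c goes on for 840 nt, that of Hist1h1d for 4884 nt and that of Hist1h1e for 1153 nt, while that of Hist1h4n ends 31 nt and that of Hist1h3c 74 nt after the core. The models of Hist1h1b, Hist1h3h, Hist1h3i and Hist1h4k hold only the coding part, so that no stem-loop could be read from them.

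The promoters of the H1 genes are shown because an element named for this class stands in most of them. RefSeq promoters (GRCm38.p6, 250 bases before to 50 after the start, both strands searched, overlaps with other motifs allowed) were matched for 59 of the 66 members, 60 promoters in all. The heptamer AAACACA, known as the H1 box, was in the promoters of 5 of 6 H1 genes (83.3%), 2 of 17 H2a promoters, 1 of 16 H2b promoters and none of the H3 and H4 promoters, and in 7.18% of all 32851 promoters in the table. CCAAT was in every H1, H2a, H2b and H3 promoter matched, in 3 of 11 H4 promoters, and in 37.4% of all promoters. TATAAA was in 33 of 60 member promoters and 13.6% of all promoters. The octamer ATTTGCAT was in 7 of 17 H2a and 6 of 16 H2b promoters, in no other class, and in 1.74% of all promoters. The 150 bases before the start of the 5 H1 genes that reached a mean of 1 FPKM are given 5′ to 3′ on the gene's strand, with matches to the first 3 of these motifs on either strand in capitals.
Hist1h1c, chr13:23738657-23738806, plus strand: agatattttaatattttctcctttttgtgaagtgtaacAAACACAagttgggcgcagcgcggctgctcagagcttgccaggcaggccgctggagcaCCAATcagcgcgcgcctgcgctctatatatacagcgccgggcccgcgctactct
Hist1h1d, chr13:23554882-23555031, plus strand: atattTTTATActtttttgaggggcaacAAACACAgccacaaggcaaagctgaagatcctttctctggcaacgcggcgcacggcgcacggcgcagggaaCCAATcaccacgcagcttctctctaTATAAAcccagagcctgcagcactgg
Hist1h1e, chr13:23622559-23622708, minus strand: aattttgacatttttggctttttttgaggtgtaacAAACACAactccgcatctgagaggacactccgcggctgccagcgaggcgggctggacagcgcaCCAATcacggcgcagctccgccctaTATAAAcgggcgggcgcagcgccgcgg
Hist1h1b, chr13:21780626-21780775, minus strand: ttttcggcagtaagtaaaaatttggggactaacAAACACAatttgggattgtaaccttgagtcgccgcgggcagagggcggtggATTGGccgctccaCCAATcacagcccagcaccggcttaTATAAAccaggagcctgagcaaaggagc
Hist1h1a, chr13:23763518-23763667, plus strand: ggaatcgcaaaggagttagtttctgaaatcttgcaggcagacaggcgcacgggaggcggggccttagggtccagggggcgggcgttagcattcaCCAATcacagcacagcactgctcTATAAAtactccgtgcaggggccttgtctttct
AAACACA began at positions -112, -122, -115 and -117 from the start in Hist1h1c, Hist1h1d, Hist1h1e and Hist1h1b, and Hist1h1a had none in the 300 bases searched. The CCAAT nearest the start began between positions -56 and -51 in all 5. These matches describe letters and are not measured binding sites.

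Histone RNA was most abundant in the replicate 2 libraries of both guides. Summed over all 66 members, EV replicates 1 and 2 held 109.6 and 111 FPKM, sg2 held 126 and 321 FPKM, and sg5 held 140.3 and 273 FPKM. The EV libraries were alike, the replicate 1 guide libraries lay slightly above them, and the replicate 2 guide libraries lay far above all others. The linker class showed the widest range. Its 6 genes summed to 24.4 and 42.4 FPKM in EV, 32.8 and 134 FPKM in sg2, and 36.7 and 138 FPKM in sg5. The H2a genes summed to 13.4 and 8.89 FPKM in EV, 12.6 and 34.0 FPKM in sg2, and 13.8 and 21.7 FPKM in sg5. Here, too, the replicate 2 guide libraries stood above the other 4. The H2b genes summed to 39.2 and 37.8 FPKM in EV, 44.1 and 75.7 FPKM in sg2, and 45.9 and 71.5 FPKM in sg5. The H3 genes summed to 10.6 and 9.81 FPKM in EV, 10.7 and 35.3 FPKM in sg2, and 14.2 and 20.4 FPKM in sg5. In both classes all 4 guide libraries lay above both EV libraries, by little in replicate 1. The H4 genes summed to 22.0 and 12.6 FPKM in EV, 26.2 and 41.4 FPKM in sg2, and 29.6 and 22.0 FPKM in sg5. H4 was the class in which sg5 replicate 2 did not stand out, at the level of EV replicate 1.

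**Figure D1:**
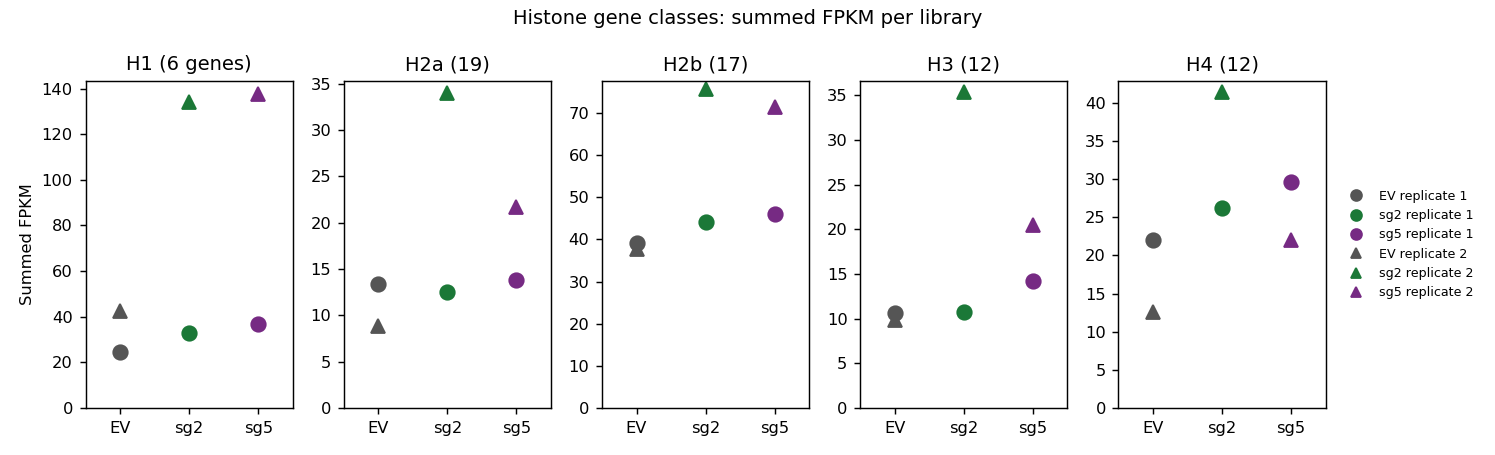
Summed FPKM of all members of each histone class (vertical axes, linear, from 0) in the 6 libraries by group (horizontal axes), with circles for replicate 1 and triangles for replicate 2 and 1 point per library. The replicate 2 guide libraries stand above the other 4 for H1 (134 and 138 FPKM against 24.4 to 42.4 FPKM), H2a, H2b and H3, and only sg2 replicate 2 does so for H4.

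The ratio of the guide mean to the EV mean was 2.55 for H1, 1.84 for H2a, 1.54 for H2b, 1.98 for H3, 1.72 for H4 and 1.95 over all members. Set against EV of matching number, the H1 sum was 1.34-fold in sg2 and 1.504-fold in sg5 replicate 1, and 3.16-fold and 3.25-fold in replicate 2. The sum over all members was 1.15-fold and 1.28-fold in replicate 1, and 2.88-fold and 2.45-fold in replicate 2. The sums carry no test. They still depend on how reads are shared between copies where model lengths differ, as between Hist1h3i (411 nt) and Hist1h3d (1249 nt), because FPKM divides by length. The H1 class made up 22.3% of histone FPKM in EV replicate 1 and 50.4% in sg5 replicate 2, while H2b went from 35.8% to 26.2% and H4 from 20.1% to 8.06% between the same libraries. Those libraries differ in both guide and replicate number. H1 was 38.0% in EV replicate 2 and 41.8% in sg2 replicate 2, against 25.9% and 26.1% in the replicate 1 guide libraries. H4 was 11.3% and 12.9% in EV and sg2 replicate 2, against 20.7% and 21.1% in the replicate 1 guide libraries. H2b was 33.9% and 23.6% in EV and sg2 replicate 2, against 34.9% and 32.7%.

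Comparison of both guides with EV asks whether histone RNA differed when the guides were present. None of the members passed the test. Over all 66, with no filter on low values, the fitted difference was positive in 59, with a median of 0.34 in log2(FPKM + 1). It was positive in 30 of the 31 members that reached a mean of 1 FPKM, with a median of 0.60, but a member can reach that mean through the libraries where it is high, as Hist2h2aa2 did through the replicate 2 guide libraries. The 31 comprised 5 H1, 6 H2a, 9 H2b, 7 H3 and 4 H4 genes. Among the H2a genes, Hist1h2al is protein-coding by its deposited biotype but a processed pseudogene in GENCODE M21. It had about 2.08 to 23.4 fragments per library. The fit in limma left the replicate number out and was adjusted by Benjamini-Hochberg over all 12929 genes tested. It called 0 members and 0.0% of all genes. Adjusted p-values of the members were all 1.00. The median over all genes tested was -0.00, with 48.7% positive. At an unadjusted p under 0.05 there were 3 members, all higher in the guide libraries, where 1.31% of all genes passed in either direction and 0.526% as higher. With the replicate number as a block, 0 members and 0.0387% of all genes were called, and 10 members had an unadjusted p under 0.05, against 5.72% of all genes. All 4 guide libraries lay above both EV libraries for 8 of the 31 members, as for 2.54% of all genes, and below both for 0 members, against 2.56%.

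Hist1h1c and Hist1h1d, somatic linker histones, were the most abundant H1 genes. Hist1h1c (chr13:23738808-23740367, plus strand, 1 exon) stood at 13.5 and 28.4 FPKM in EV, 18.6 and 73.1 FPKM in sg2, and 20.3 and 74.2 FPKM in sg5. Its lowest library was EV replicate 1, and EV replicate 2 lay above both replicate 1 guide libraries, so that the groups overlapped. The fitted difference was 0.92 (SE 0.71) on the log2(FPKM + 1) scale. With the replicate block the SE was 0.19, and the adjusted p in limma was 0.529. Hist1h1d (chr13:23553262-23560686, plus strand) stood at 6.21 and 8.37 FPKM in EV, 8.79 and 31.6 FPKM in sg2, and 8.67 and 30.5 FPKM in sg5. Every guide library was above both EV libraries, by little in replicate 1, and the difference was 1.10 (SE 0.62). Hist1h1b (chr13:21779883-21780625, minus strand), an H1 variant of dividing cells, stood at 1.27 and 2.85 FPKM in EV, 1.45 and 13.8 FPKM in sg2, and 2.63 and 17.7 FPKM in sg5. EV replicate 2 was above both replicate 1 guide libraries here as well. At 1.25 (SE 0.91) it had the highest fitted difference of the members tested. Hist1h1a (chr13:23763666-23764406, plus strand), another H1 variant, stood at 1.34 and 0.61 FPKM in EV, 1.71 and 3.67 FPKM in sg2, and 3.07 and 4.40 FPKM in sg5. Its groups did not overlap, and the difference was 1.07 (SE 0.34, unadjusted p under 0.05). Hist1h1e, which lies outside the naming rule and was added after its values were seen, stood at 2.02 and 2.10 FPKM in EV, 2.06 and 11.7 FPKM in sg2, and 1.89 and 10.8 FPKM in sg5. Both EV and both replicate 1 guide libraries were at one level, and only the replicate 2 guide libraries were higher.

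**Figure D2:**
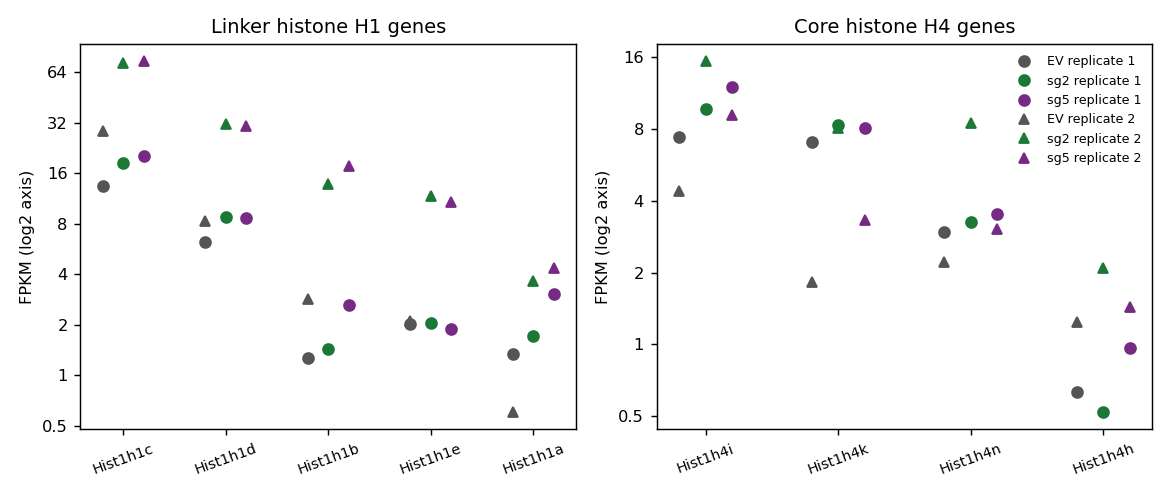
FPKM (log2 axis) of the 5 linker histone H1 genes and the 4 histone H4 genes that were tested, 1 point per library, circles for replicate 1 and triangles for replicate 2. The replicate 2 guide libraries are highest for all 5 H1 genes (73.1 and 74.2 FPKM for Hist1h1c), whereas for Hist1h4k EV replicate 2 (1.82 FPKM) and sg5 replicate 2 (3.34 FPKM) are lowest.

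Among the H2A genes, Hist3h2a (chr11:58954685-58956830, plus strand), which lies in the small cluster on chromosome 11, stood at 1.61 and 2.69 FPKM in EV, 2.30 and 7.70 FPKM in sg2, and 2.55 and 6.82 FPKM in sg5. EV replicate 2 was above both replicate 1 guide libraries. The fitted difference was 0.78 (SE 0.48), the highest of its class. Hist1h2ad stood at 1.74 and 1.43 FPKM in EV, 0.81 and 3.09 FPKM in sg2, and 1.44 and 2.54 FPKM in sg5. Hist1h2ae stood at 2.53 and 0.38 FPKM in EV, 2.00 and 3.03 FPKM in sg2, and 1.46 and 0.97 FPKM in sg5. For both, the guide libraries lay below EV in replicate 1 and above it in replicate 2. Their fitted differences were 0.13 (SE 0.37) and 0.33 (SE 0.47). Without EV replicate 2 that of Hist1h2ae was -0.35, and without sg2 replicate 2 that of Hist1h2ad was -0.047.

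The H2B genes held the member of smallest p. Hist1h2br stood at 0.54 and 0.85 FPKM in EV, 1.90 and 3.61 FPKM in sg2, and 2.17 and 2.85 FPKM in sg5, with no overlap between the groups. Its difference was 1.08 (SE 0.27, unadjusted p under 0.05). Its adjusted p in limma was 1.00, and 0.291 with the replicate block. Hist1h2bq stood at 1.38 and 2.56 FPKM in EV, 0.72 and 3.995 FPKM in sg2, and was listed at 0 in sg5 replicate 1 and at 4.67 FPKM in sg5 replicate 2. It had the only negative fitted difference of the members tested, -0.14 (SE 0.77), which became 0.15 without EV replicate 2, 0.07 without sg2 replicate 1 and 0.33 without sg5 replicate 1. The transcripts of this pair are close to identical: 89.5% of the 31-base words of Hist1h2br also occur in Hist1h2bq and 98.3% of those of Hist1h2bq in Hist1h2br, so each single value is uncertain. Summed over the pair, chosen after the values were seen, EV held 1.92 and 3.42 FPKM, sg2 2.62 and 7.60 FPKM, and sg5 2.17 and 7.51 FPKM. In the sum the groups overlapped, and the replicate 2 guide libraries were the highest. Hist1h2bc, the most abundant H2B gene, stood at 12.7 and 8.53 FPKM in EV, 14.4 and 20.6 FPKM in sg2, and 12.8 and 15.6 FPKM in sg5. Its groups did not overlap, although sg5 replicate 1 and EV replicate 1 nearly met, and the difference was 0.54 (SE 0.23). Hist2h2be, of the chromosome 3 cluster, stood at 9.90 and 13.6 FPKM in EV, 10.5 and 15.0 FPKM in sg2, and 12.5 and 15.3 FPKM in sg5. EV replicate 2 was above both replicate 1 guide libraries, and the difference was 0.17 (SE 0.20), or -0.044 without EV replicate 1. Hist1h2be stood at 2.71 and 3.28 FPKM in EV, 2.72 and 8.49 FPKM in sg2, and 2.88 and 12.2 FPKM in sg5. Its replicate 1 libraries were at one level in all 3 groups.

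For the H3 genes the values were low, and sg2 replicate 2 was often the highest library. Hist1h3d stood at 1.95 and 3.40 FPKM in EV, 2.75 and 9.49 FPKM in sg2, and 2.74 and 5.32 FPKM in sg5. Hist1h3i stood at 1.86 and 2.01 FPKM in EV, 1.98 and 8.58 FPKM in sg2, and 3.24 and 4.46 FPKM in sg5. EV overlapped the guide libraries in both genes, and their fitted differences were 0.62 (SE 0.47) and 0.79 (SE 0.45). Hist1h3h was at 0.80 FPKM in EV replicate 1 and listed at 0 in EV replicate 2, at 0.77 and 3.43 FPKM in sg2, and at 1.62 and 1.17 FPKM in sg5. It had the highest difference of its class, 0.95 (SE 0.46), from about 27.8 fragments at most in a library. Hist1h3c stood at 1.70 and 0.97 FPKM in EV, 1.48 and 2.83 FPKM in sg2, and 1.83 and 3.06 FPKM in sg5, lowest in EV replicate 2 and highest in the replicate 2 guide libraries. Hist2h3c2 stood at 0.52 and 1.37 FPKM in EV, 0.33 and 2.98 FPKM in sg2, and 0.38 and 3.52 FPKM in sg5. The guide libraries lay below EV in replicate 1 and above it in replicate 2. Only 6.82% of the 31-base words of Hist1h3i and 5.77% of those of Hist1h3h are unique among transcripts, so these 2 values are uncertain.

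Of the H4 genes, Hist1h4i (chr13:22040636-22041362, minus strand) was the most abundant. It stood at 7.42 and 4.39 FPKM in EV, 9.67 and 15.4 FPKM in sg2, and 11.995 and 9.15 FPKM in sg5. Every guide library was above both EV libraries, and the difference was 0.87 (SE 0.27, unadjusted p under 0.05). Hist1h4k stood at 7.08 and 1.82 FPKM in EV, 8.34 and 8.05 FPKM in sg2, and 8.09 and 3.34 FPKM in sg5. The low libraries were EV replicate 2 and sg5 replicate 2. Its difference was 0.67 (SE 0.51), and -0.088 without EV replicate 2. Hist1h4n stood at 2.95 and 2.21 FPKM in EV, 3.25 and 8.47 FPKM in sg2, and 3.51 and 3.06 FPKM in sg5. Only sg2 replicate 2 stood apart, with the other 3 guide libraries just above EV. Unique 31-base words made up 13.8% of Hist1h4k and 12.5% of Hist1h4n, so their single values are uncertain, against 64.4% of Hist1h4i.

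Each guide taken alone gave the same call. Against EV, sg2 was positive for 31 of 31 members with a median of 0.70, and sg5 for 29 of 31 with a median of 0.43. Of all genes tested, 50.8% were positive for sg2 and 47.3% for sg5. As above, a member can reach the mean of 1 FPKM through the guide libraries, so these counts may partly follow from the filter. With no filter on low values, sg2 was positive for 58 of 66 members (median 0.38) and sg5 for 54 (median 0.28). In the 3-group limma fit 0 members were called for sg2, where 0.00773% of all genes were called, and 0 for sg5, where 0.0% were called. Both comparisons use the same EV libraries. The medians over the 31 members rest on single libraries. That of sg2 was 0.11, with 20 of 31 positive, without sg2 replicate 2, and 1.17 without sg2 replicate 1. That of sg5 was 0.22 without sg5 replicate 2 and 0.82 without sg5 replicate 1. Between the guides 0 members and 0.0% of all genes were called, and the direction turned with the library left out. The median of sg5 less sg2 was -0.09 with all libraries (21 of 31 negative), 0.44 without sg2 replicate 2 and 0.26 without sg5 replicate 1, but -0.67 without sg2 replicate 1 and -0.40 without sg5 replicate 2. With the library of conflicting labels counted as sg2, the medians were 0.73 for sg2 and 0.22 for sg5 against EV, and -0.34 for sg5 against sg2, and again 0 members were called in each. Without that library, the median of both guides against EV was 0.54, with 0 members called.

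Linker and core histone genes were also compared between the replicate numbers. With the group as a term, 9 of 31 members rose in the replicate 2 libraries and none fell (limma, adjusted p under 0.05). As background, 47.1% of all genes were called between the replicate numbers, 20.2% as higher and 26.9% as lower. The members called were Hist1h1c, Hist1h1d and Hist1h1b of H1, Hist3h2a of H2a, Hist2h2be, Hist1h2be and Hist1h2bq of H2b, and Hist1h3d and Hist2h3c2 of H3. No H4 gene was called. The highest fitted difference was that of Hist1h1b, 1.91 (SE 0.39, adjusted p = 0.0179), and the smallest p that of Hist1h1c, with 1.59 (SE 0.20, adjusted p = 0.00493). Hist1h1c was higher in replicate 2 in all 3 groups, by 1.02 in EV, 1.92 in sg2 and 1.82 in sg5. Hist2h2be had a small difference, 0.39 (SE 0.08, adjusted p = 0.016), with similar values of 0.42, 0.47 and 0.27 in EV, sg2 and sg5. The other 6 called members lay between 0.94 for Hist1h3d and 1.54 for Hist1h2bq. Among them, Hist1h1d rose by 0.38 in EV, 1.74 in sg2 and 1.70 in sg5, and Hist1h2be by 0.21, 1.35 and 1.77. All 3 replicate 2 libraries lay above all 3 replicate 1 libraries for 11 of 31 members, as for 27.0% of all genes, and below them for 0 members, against 34.1% of all genes. The members' median difference was 0.51, with 26 of 31 positive, and the median over all genes tested was -0.04. By class it was 1.37 for H1, 0.58 for H2a, 0.39 for H2b, 0.70 for H3 and 0.05 for H4. Over all 66 members, with no filter on low values, the median was 0.18, with 46 positive, and 2 members were called, both higher. In that fit 4614 of 26126 genes were called, 2002 of them as higher, and 52.2% of all genes were positive. Taken by group, the median over the 31 members was 0.08 in EV (17 positive), 1.16 in sg2 (29 positive) and 0.52 in sg5 (23 positive). Leaving out either sg2 library left 2 members called, Hist1h1c as higher and Hist1h4k as lower (-1.29 in both fits), where at most 9.51% of all genes were called as higher and 14.3% as lower. Leaving out either sg5 library, of which replicate 2 has the conflicting labels, left Hist1h1c and Hist2h2be, both higher, where at most 14.0% of all genes were called as higher and 19.4% as lower. Leaving out either EV library left 10 members, all higher, where at most 10.6% were called as higher and 14.1% as lower. Hist1h1c was called in each of these 6 fits. Because the group is a term, leaving out either library of a group gives the same difference. For Hist1h1c it was 1.87 without either EV library, 1.42 without either sg2 library and 1.47 without either sg5 library. The fits are therefore 1 check per group.

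The difference between the guides and EV was then taken within each replicate number. Within replicate 1, the guide libraries lay above EV by a median of 0.22 over the 31 members, and within replicate 2 by 1.01, where the medians of all genes were 0.00 and -0.01. Both guide libraries were above EV for 20 of 31 members within replicate 1, against 34.9% of all genes, and for 30 of 31 within replicate 2, against 29.4% of all genes. For 21 of 31 members both replicate 2 guide libraries were above the 4 other libraries, as for 13.7% of all genes. A member can reach the mean of 1 FPKM through these libraries, so counts over the 31 members may partly follow from the filter. By class, the medians within replicate 1 and within replicate 2 were 0.43 and 1.77 for H1, -0.08 and 0.99 for H2a, 0.19 and 0.99 for H2b, 0.26 and 0.89 for H3, and 0.17 and 1.05 for H4. The limma test of the difference of these differences called 0 members and 0.0% of all genes. At an unadjusted p under 0.05 there were 12 members, all with the larger guide difference in replicate 2, against 4.18% of all genes in either direction and 2.18% in that direction. The smallest p-values were those of Hist1h1d, at 1.34 (SE 0.14, unadjusted p = 0.000616, adjusted p = 0.39), and Hist1h1e, at 2.00 (SE 0.21, unadjusted p = 0.000635, adjusted p = 0.39). The count of 12 was 18 without the library of conflicting labels (5.62% of all genes) and 7 without sg2 replicate 1 (4.42% of all genes), with 0 members called in both. Over all 66 members, with no filter on low values, the median difference of differences was 0.58, with 54 positive. In that fit 0 members and 243 of all genes were called. At an unadjusted p under 0.05 in limma there were 12 of the 66, all in the same direction. Of 26126 genes, 2144 passed in either direction and 1063 in that direction.

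**Figure D3:**
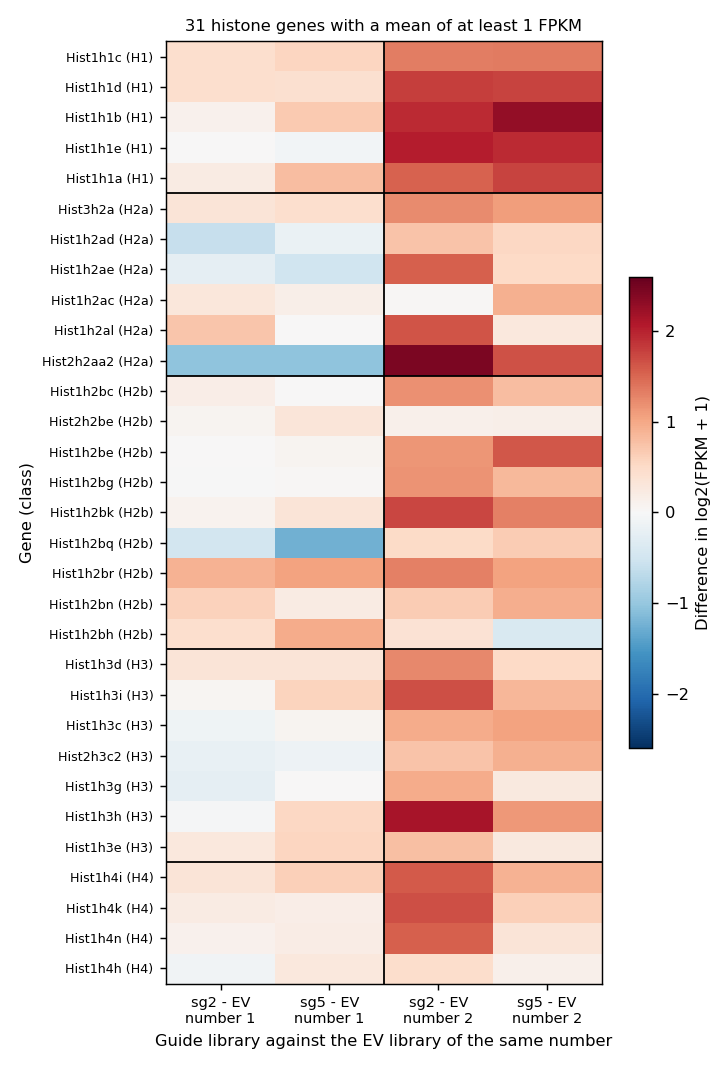
Difference in log2(FPKM + 1) between each guide library and EV of matching replicate number (columns) for the 31 tested members (rows, by class), red for higher and blue for lower. The 2 replicate 1 columns are pale or mixed (median over the members of both guides 0.22), and the 2 replicate 2 columns are red for nearly all members (median 1.01).

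The difference between the replicate numbers was also set beside the annotated 3′ end. In the 10 tested members whose model runs more than 200 nt past the stem-loop, among them Hist1h1c, Hist1h1d, Hist1h1e and Hist3h2a, the median difference between replicates 2 and 1 was 1.06, with 9 positive. In the 8 whose model ends within 200 nt of it, such as Hist1h4n and Hist1h3c, the median was 0.37, with 6 positive. It was 0.25 for the 5 members modelled by their coding part only, although Hist1h1b, the member of the highest difference, is one of these. It was 0.30 for the 6 with no stem-loop in their model. In EV alone these medians were 0.44, -0.38, -0.01 and -0.13. The groups share libraries and hold few genes, and no test was made of the difference between them.

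The members were also split by how much of their sequence is unique. Of the 30 tested members with a transcript model, 14 had at least 50% of their 31-base words unique. Their median guide difference was 0.74, with 14 of 14 positive, against 0.53 in the other 16, with 15 positive. The median difference between replicate numbers was 0.77 in the first set and 0.46 in the second. All 5 tested H1 genes, the class of the highest median guide difference (1.07), are in the first set. Uniqueness and class can therefore not be told apart here, and the counts may partly follow from the filter on the mean. Hist1h1a (99.7% unique), Hist2h2be (97.2%), Hist1h1d (96.3%), Hist1h1b (96.1%) and Hist1h1c (88.6%) were the members whose values are best separated from those of other genes.

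Sums were also taken by position in the genome. The 29 members between 23531050 and 23934851 on chromosome 13, which include 4 of the 5 H1 genes above, summed to 58.0 and 67.9 FPKM in EV, 68.0 and 195 FPKM in sg2, and 71.7 and 182 FPKM in sg5. The 21 members between 21715763 and 22043676 on chromosome 13 summed to 34.2 and 22.3 FPKM in EV, 40.3 and 80.1 FPKM in sg2, and 47.6 and 56.5 FPKM in sg5. In both, the replicate 2 guide libraries were the highest. The 10 members on chromosome 3 summed to 13.6 and 15.7 FPKM in EV, 12.2 and 29.8 FPKM in sg2, and 14.7 and 24.9 FPKM in sg5. Hist4h4, the single member on chromosome 6, was between 0.22 and 0.38 FPKM in all 6 libraries.

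Of the 66 members, 35 did not reach the mean of 1 FPKM and were not tested. They comprised 1 H1, 13 H2a, 8 H2b, 5 H3 and 8 H4 genes, with mean values between 0.017 and 0.992 FPKM. The guide mean was above the EV mean for 29 of them and below it for 6. The same count over all genes below the filter was not taken, so these counts have no background beside them. Of the 35, 16 were above 0 in all 6 libraries, and 2 in only 1 library, an sg5 library for both. The tested members were themselves thinly covered, with a median of about 49.1 fragments per library, and 12 of the 30 with a known length had fewer than 10 in at least 1 library. Hist1h1c had between about 594 and 3969 fragments.

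Genes that act on histone genes, mRNA and proteins were taken as lists. Among 28 tested genes of histone mRNA 3′ processing and turnover, none was called for the guides against EV (median -0.03), and 3 rose and 16 fell in the replicate 2 libraries (median -0.41). These counts and those of the lists that follow stand beside 20.2% of all genes called as higher and 26.9% as lower between the replicate numbers. Slbp, the stem-loop binding protein, was at 110.1 and 78.4 FPKM in EV, 114 and 70.8 FPKM in sg2, and 109 and 70.0 FPKM in sg5. All 3 replicate 2 libraries were below all 3 replicate 1 libraries, and the gene fell by 0.60 on the log2(FPKM + 1) scale (SE 0.07, adjusted p = 0.00409). Snrpb, a subunit of the U7 and spliceosomal particles, fell by 0.49 and Srrt, which links the cap-binding complex to 3′ ends, fell by 0.83. Among 20 tested regulators of histone gene transcription, 0 were called for the guides, and 1 rose and 8 fell in replicate 2. Ccna2, the S phase cyclin A, fell by 0.35, while Nfya, a subunit of the factor that binds CCAAT, and Cdk2, the kinase of cyclins E and A, did not pass the test, with differences of -0.06 and -0.13. Of 33 histone chaperones 0 were called for the guides, and 2 rose and 19 fell in replicate 2. The nucleolar chaperones Npm1 and Ncl fell by 1.95 and 1.25, and Nap1l1, which carries H2A and H2B, fell by 0.68.

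Most genes of DNA replication fell in the replicate 2 libraries. Of 40 S phase and DNA replication genes, 38 fell and 1 rose in replicate 2, with a median of -0.63. A fall was not particular to them: the median of 8 housekeeping genes was -0.53. Pcna, the sliding clamp of the replication fork, was at 305 and 159 FPKM in EV, 306 and 140.3 FPKM in sg2, and 285 and 135 FPKM in sg5. It was lower in replicate 2 in every group, by 1.04 (SE 0.06, adjusted p = 0.0019). For the guides against EV 0 of the 40 were called, with a median of -0.09. The replication-independent histones, which are polyadenylated, had 9 tested genes, of which 0 were called for the guides and 2 rose and 2 fell in replicate 2. H3f3b, which encodes H3.3, was at 569.6 and 428 FPKM in EV, 579.7 and 624 FPKM in sg2, and 586 and 778 FPKM in sg5, and was not called. H2afz, which encodes H2A.Z, fell by 0.33 (adjusted p = 0.0179), and H2afv, which encodes a second H2A.Z protein, rose by 0.63 (adjusted p = 0.016). H3f3a, the other H3.3 gene, and H1f0, a linker histone of resting cells, had differences of -0.10 and 0.19 and did not pass.

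Most RNAs made without a poly(A) tail rose in the replicate 2 libraries. Of 7 tested genes 5 rose and 0 fell, with a median of 1.97, and for the guides against EV 0 were called, with a median of 0.78. Rn7sk, a small nuclear RNA that restrains transcription elongation, was at 6.10 and 55.4 FPKM in EV, 14.6 and 65.7 FPKM in sg2, and 18.2 and 42.7 FPKM in sg5. All 3 replicate 2 libraries were above all 3 replicate 1 libraries, EV among them. Malat1, a nuclear long RNA whose end is also formed without a tail, was at 31.03 and 69.2 FPKM in EV, 27.3 and 58.2 FPKM in sg2, and 32.0 and 56.7 FPKM in sg5. Rn7s1, the RNA of the signal recognition particle, rose by 2.39, and its copy Rn7s2 held equal values in every library. Vaultrc5, a vault RNA, rose by 1.97. Each of these RNAs was higher in EV replicate 2 than in EV replicate 1. Of 8 housekeeping genes 6 fell in replicate 2, with a median of -0.53, and 0 were called for the guides. Of 10 tested neutrophil granule and differentiation genes, 10 were lower in the guide libraries, with a median of -2.20, 0 of them called (2 lower with the replicate block), and between the replicate numbers 4 rose and 1 fell. The part of short RNAs, of RNAs without a tail, of S phase genes and of neutrophil genes in the histone values was not tested.

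**Figure D4:**
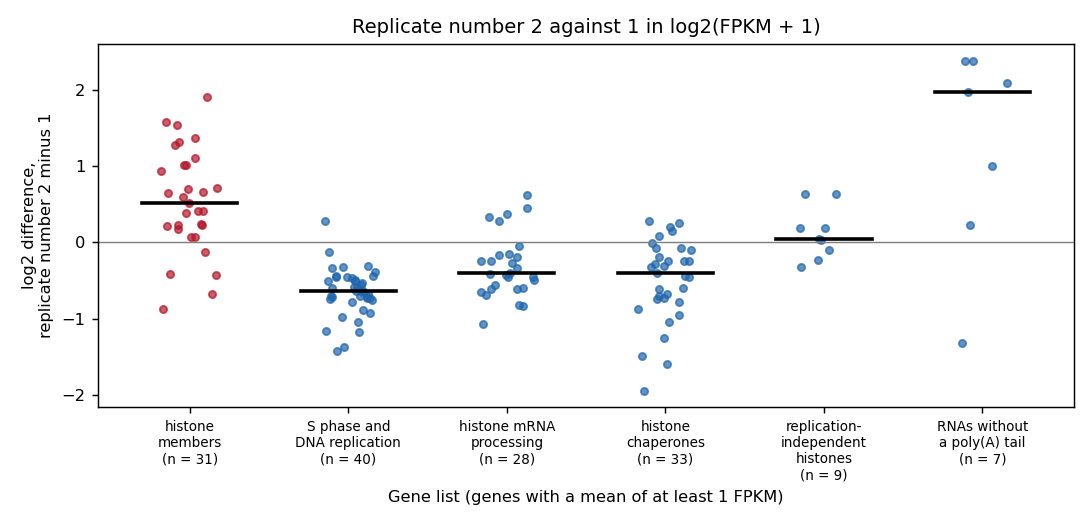
Fitted difference between replicate numbers 2 and 1 in log2(FPKM + 1) (vertical axis) for the tested members and 5 gene lists (horizontal axis), 1 point per gene, with a black line at the median of each list. The histone members lie mostly above 0 (median 0.51), the S phase genes below it (median -0.63), and the RNAs without a poly(A) tail highest (median 1.97). The housekeeping genes (median -0.53) are not drawn.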

How the data were processed

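RNA from 6 libraries of 32D cells was sequenced after preparation with a TruSeq RNA kit, per the labels' protocols. The labels do not say how mRNA was selected or whether strand was kept. The authors deposited 1 table of FPKM values per library, with 47606 genes. Per the submitters' processing notes, kallisto 0.43.0, DESeq2 and the builds GRCm38 and mm10 were used, and the step that gave FPKM is not given in the sources used here. Because kallisto shares reads between similar transcripts, values of near-identical histone copies are uncertain, and class sums were taken. No 2 libraries held equal values.

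The members and the gene lists were chosen with earlier results of these data known. Groups follow the titles. The 12929 genes whose mean over the libraries reached 1 FPKM were fitted as log2(FPKM + 1) with limma 3.58.1 in R 4.3.3 (trend), with Benjamini-Hochberg adjustment over all of them at 0.05. The pseudocount of 1 understates changes of low genes. The fits were guides against EV, each guide against EV and against the other, replicate number with group as a term, and the interaction of guide and number. Differences between the replicate numbers correlated between groups at 0.611, 0.591 and 0.583 across genes. The numbers, which come from the labels, were therefore treated as pairing the libraries in the replicate block and in the differences within each number. The main fits of the guides against EV, of each guide and between the guides left the number out. Their SE and p-values therefore include the spread between the numbers. Members named are, in each class, the 3 of highest mean and the smallest p for guides against EV. Over all members tested, those of the highest and lowest difference for guides against EV and any called are named too. In the other lists they are the 3 of highest mean, up to 5 for RNAs without a tail and replication-independent histones. Many members of these lists were called between the replicate numbers, and only some are named.

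Depth was estimated from the lowest values of 752 genes longer than 4000 nt with 1 transcript, taking fragments of 200 nt. Between 92.1% and 97.7% of low values came out whole within 0.15. Fragment numbers are therefore approximate, and 3 fragments of a 1 kb transcript are 0.0657 to 0.0945 FPKM, which covers counting error only. In data simulated for 12929 genes with normal noise, the shifted genes were drawn only from those above about 5 FPKM. Of the 31 tested members 10 reach a mean of 5 FPKM, so the recovery does not describe the others. The fit of guides against EV found 26 of 100 genes shifted by 1 log2 unit (83 under the block). The fit of the replicate number recovered 78 of 100 and the interaction 3 of 100, and 78 of 100 at 3 log2 units. Stem-loops and unique 31-base words were read from GENCODE M21 transcripts (GRCm38), matched by gene ID for 64 members. Python 3.11.15, numpy 2.4.6, pandas 2.3.3 and matplotlib 3.10.9 were used. Alternatives were the pseudocount (0.1), the filter (none, or a mean of 5), rescaling over genes of at least 200 nt, protein-coding genes only, the replicate block, the other label of the library with conflicting labels, and each library left out. Leaving out each library under the block was added after seeing the data.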

Additional observations from a re-analysis of the deposited data

Results flagged for a closer look

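Among the 26 groups of 4 guide libraries examined, 2 held a library far from the rest, where chance alone marks about 1 group in 20. For Hist1h4k, sg5 replicate 2 was low at 3.34 FPKM, and its gap to the nearest of the others was 0.942 of the whole range. For Hist1h4n, sg2 replicate 2 was high at 8.47 FPKM, with a gap of 0.917 of the range. The first of these is the library with conflicting labels. Of 20 members examined, 4 had both guide libraries below EV in replicate 1 and both above it in replicate 2. The mean difference in replicate 2 less that in replicate 1 was 2.00 FPKM for Hist1h2ad, 2.42 FPKM for Hist1h2ae, 2.79 FPKM for Hist1h2bq and 2.04 FPKM for Hist2h3c2. That difference was not tested on the FPKM scale. The interaction of guide and number in limma gave adjusted p = 1.00 for each of them.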

How the results depend on the processing

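For the guides against EV, for each guide and for the interaction, 0 members were called under every alternative run. Class sums kept their direction in all 54 values, and when leaving out 1 library they ranged from 2.01 to 3.496 for H1 (2.55 with all) and from 1.35 to 2.36 for H4 (1.72 with all), the latter value without EV replicate 1. Of 463 values of named members, 408 kept their direction and call, 42 lost the call and 13 changed sign. Members called between the replicate numbers went from 9 to 2 with no filter on low values, where 4614 of 26126 genes were called. They went to 17 with protein-coding genes only (15 higher and 2 lower, where 59.5% of genes were called). They ranged from 2 to 10 when leaving out 1 library, with 2 without any 1 sg2 or sg5 library and 10 without either EV library. The sign for the guides against EV changed for Hist1h2ad without sg2 replicate 2 (-0.047) and, under the replicate block, without EV replicate 2 (-0.38). It changed without EV replicate 2 for Hist1h2ae (-0.35, and -0.38 under the block), Hist1h2bq (0.15) and Hist1h4k (-0.088), and under the block for Hist1h3c (-0.025) and Hist2h3c2 (-0.16). Hist1h2bq also changed without sg2 replicate 1 (0.07), without sg5 replicate 1 (0.33, and 0.13 under the block) and under the block without EV replicate 1 (0.58). Hist2h2be changed without EV replicate 1 (-0.044). Leaving out 1 library without the block, these values reached 0.35 at most for Hist1h2ad, 1.00 for Hist1h2ae, 1.43 for Hist1h4k and 0.38 for Hist2h2be, and -0.51 at least for Hist1h2bq. The cause of these changes was not tested. Over all genes, calls for the guides against EV went from 0 to 5 with the replicate block, 3 with the block and rescaling, 6 with no filter and 1 with protein-coding genes only, and those for sg2 from 1 to 3 with the block and 0 with no filter. Calls for sg5 against EV went from 0 to 18 with no filter and 2 with the block, for sg5 against sg2 from 0 to 23 with no filter, and for the interaction from 0 to 243 with no filter and 2 with protein-coding genes only. Between the replicate numbers they went from 6089 to between 3036 and 4277 when leaving out 1 library. The replicate block changed no other call of a member. With about 49.1 fragments per library for the median member tested, differences of low members, and of all members at an effect of 1 log2 unit in the interaction, could be missed at this depth and with 6 libraries.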
